A study of Mus musculus with 6 samples.

Results

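The genes described here encode the proteins of the cytosolic ribosome. They are the protein-coding genes of the GENCODE M21 mouse annotation named Rpsa, Rplp0, Rplp1, Rplp2, or Rpl or Rps followed by a digit, without the kinases, binding proteins and 6 named paralogs that share the prefix and without symbols marked -ps for a pseudogene. The rule found 79 of the 55450 genes in each table, 47 of the large subunit and 32 of the small subunit. They were measured by sequencing of long RNA from whole mouse brain in 3 wild-type libraries (WT 1 to 3) and 3 libraries from mice without TRMT1L (KO 1 to 3). TRMT1L is a protein related to the tRNA-guanosine methyltransferase TRMT1. RNA over 200 bp was taken into Illumina TruSeq total RNA libraries, and the labels call the replicates biological triplicates. How the knockout allele was made, and the sex, age and litter of the animals, are not given in the labels, so p-values measure the spread between these libraries.

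Each ribosome holds 1 copy of nearly every ribosomal protein, and cells make the proteins in balanced amounts. Their mRNAs begin with a C followed by a run of pyrimidines, the 5′ terminal oligopyrimidine (TOP) motif, through which mTOR and the RNA-binding protein LARP1 set their translation as a group. In neurons, ribosomes work in the cell body and in dendrites and axons, and ribosomal protein mRNAs are among those found in neurites. Ribosomal proteins that are not built into ribosomes are degraded, and some of them, RPL5 and RPL11 first among them, bind the ubiquitin ligase MDM2.

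The start sites show what these genes share in sequence. Windows of 60 bases, 30 before the start site and 30 from it on, follow for 3 genes that stood higher in KO at an unadjusted p under 0.05 (Rpl18, Rplp2, Rps9), 3 that did not (Rps27, Rpl38, Rps15a) and Rpsa, which had the smallest p and is 1 of 23 genes, of 59 with a RefSeq start site, that have no run of the kind marked in such a window. They are RefSeq start sites on GRCm38.p6, written 5′ to 3′ on the gene's strand, and capitals mark the longest run of at least 7 C or T that begins with C. The windows lie at chr7:45718041-45718100 (plus strand) for Rpl18, chr7:141447621-141447680 (plus) for Rplp2, chr7:3704011-3704070 (plus) for Rps9, chr3:90213619-90213678 (minus) for Rps27, chr11:114668550-114668609 (plus) for Rpl38, chr7:118116118-118116177 (minus) for Rps15a and chr9:120127736-120127795 (plus) for Rpsa.
Rpl18: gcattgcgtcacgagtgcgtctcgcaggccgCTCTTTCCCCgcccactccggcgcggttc
Rplp2: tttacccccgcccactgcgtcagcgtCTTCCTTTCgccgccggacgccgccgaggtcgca
Rps9: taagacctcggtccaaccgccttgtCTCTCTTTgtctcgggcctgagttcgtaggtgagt
Rps27: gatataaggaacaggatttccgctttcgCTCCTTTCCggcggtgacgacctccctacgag
Rpl38: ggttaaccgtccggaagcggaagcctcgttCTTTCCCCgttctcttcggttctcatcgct
Rps15a: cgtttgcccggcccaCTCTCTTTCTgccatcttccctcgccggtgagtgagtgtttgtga
Rpsa: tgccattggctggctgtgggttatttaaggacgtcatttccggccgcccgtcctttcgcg

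The run starts at the annotated start site itself in Rpl38, 1 base after it in Rpl18, 2 bases before it in Rps27, 4 before it in Rplp2, 5 before it in Rps9 and 15 before it in Rps15a. The RefSeq table held promoters of 59 of the 79 genes, 36 of them had such a run within the 60-base window of a start site, and 51 (86.4%) had one in the wider window of 50 bases on either side, against 44.5% of all 27025 genes in the table. The letters CCGGAAG, the core bound by ETS factors such as GABP, stood on either strand of the 300-base promoter in 40.7% of the ribosomal protein genes and 9.93% of all genes. AAGATGG, the core bound by YY1, stood there in 15.3% and 7.28%. The 49 tested genes with a pyrimidine run had a median log2 fold change (KO over WT) of 0.11, and the 8 without one had 0.08.

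Each library held 31201119 to 36145961 counts in genes. Trmt1l, the targeted gene, lay at 35.1, 33.0 and 35.2 CPM (counts relative to the library's TMM-scaled total) in WT 1 to 3 and at 2.68, 3.0 and 2.93 in KO 1 to 3. On the log2 scale the difference was -3.58 ± 0.081 (standard error, SE), with an adjusted p of 6.95e-10 by edgeR. Of the mapped reads, 51.2% ± 0.925 (SD, n = 3) fell in no gene in WT libraries and 49.3% ± 0.601 in KO libraries, while 4.92% ± 0.280 and 5.48% ± 0.196 fitted several places and 0.794% ± 0.0123 and 0.882% ± 0.0238 fell in several genes. For all 3 shares the groups did not overlap, and the two-sided exact permutation test gave p = 0.1 for each, the smallest that 3 against 3 libraries allow. The part of these shares in the ribosomal protein values was not tested. In whole brain, fewer cells of a type and less RNA per cell cannot be told apart.

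Per length of exonic sequence, ribosomal protein genes ranged over a wide span of levels. In TPM (the counts per base of a gene's merged exons, scaled to a fixed total, mean of 6 libraries), the median was 144 for the 46 tested large subunit genes and 155 for the 31 tested small subunit genes, and 29 and 22 of them reached 100 TPM. Rps15, whose protein sits in the head of the small subunit, had the highest level at 842 TPM. Rplp1, an acidic stalk protein, followed at 801 TPM. Then came Rps3a1 at 539, Rps29 at 451, Rpl4, which lines the peptide exit tunnel, at 422, and Rpl38 at 387. At the other end, leaving aside 5 genes under 10 CPM, were Rps19 at 38.2 TPM, Rpl35a at 38.4 and Rps20 at 40.4. Those neighbours do not differ beyond their spread: the SD over 3 WT libraries was 4.04 TPM for Rps19, 2.17 for Rpl35a and 3.22 for Rps20. The order follows the length used, and with the length of the main transcript (the coding transcript listed first), an alternative chosen after the data were seen, Rps15 moved from the first to the third place, Rplp1 from the second to place 5 and Rps3a1 from the third to place 16, while Rps24 came first, from place 49.

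Several genes had few counts. Rpl24, a protein at the interface with the small subunit, had 5 to 20 counts a library, Rps10 had 73 to 96, Rpl13a, also known as a translational silencer in interferon signalling, had 183 to 225, and the paralogs Rpl36al and Rps27rt had 6 to 12 and 2 to 5, too few for the test. The exons of Rpl24, Rpl13a, Rpl36al and Rps10 overlap with other genes on the same strand, over 47.0%, 35.4%, 24.5% and 20.6% of their length. These are the readthrough or unnamed genes Gm28037, Gm45713, Gm49383 and RPS10-NUDT3, in that order, and for Rpl13a also Mir5121 and Snord33. A read in both genes is left out of the counts. Rpl13a, Rpl24 and Rps10 are the 3 tested genes whose low level goes with such an overlap, and their values are uncertain. Sequence shared with other genes, processed pseudogenes included, is common here: 78 of the 79 genes share at least 1 stretch of 50 bases with a transcript of another gene, and in 41 such stretches make up over 50% of the main transcript. A read that fits several places is left out of the deposited counts.

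Among the paralogs, the parent had the higher level in all 8 pairs, by reads that fit 1 place. Stretches of 50 bases shared with other genes made up 98.6% of the main transcript in Rps27, 91.1% in Rps27rt, 85.5% in Rpl36a and 63.3% in Rpl36al. The part of left-out reads in the ratios that follow was not tested. Rpl22l1 stood at 36.1% of the TPM of Rpl22, Rps27l at 18% of Rps27 and Rpl7l1 at 14.7% of Rpl7. Rpl36al stood at 1.39% of Rpl36a, Rps27rt at 0.853% of Rps27, Rpl39l at 0.357% of Rpl39 and Rpl3l, the heart and skeletal muscle form, at 0.186% of Rpl3, and Rpl10l, the testis form, had 0 counts in all 6 libraries. Rpl7l1 had 24.8, 22.5 and 22.8 CPM in WT and 26.9, 27.7 and 25.4 in KO. Its KO libraries all lay above its WT libraries, at a log2 fold change of 0.19 ± 0.066 (SE, by edgeR at adjusted p = 0.58), while its parent Rpl7, with 128, 125 and 124 CPM in WT and 138, 133 and 133 in KO, was at 0.10 ± 0.043 (adjusted p = 0.62). Rpl22l1, Rpl3l and Rps27l overlapped between genotypes, at log2 fold changes of -0.11, 0.20 and 0.03. Their parents Rpl22 (0.07), Rpl3 (0.04) and Rps27 (0.09) overlapped too, and so did Rpl39 (0.08) and Rpl36a (0.12). These values moved by over 1.5 times when 1 library was left out: Rpl22l1 ranged from -0.17 (without KO 1) to -0.043 (without KO 2), Rpl22 from 0.023 (without WT 2) to 0.12 (without WT 3), Rpl3 from 0.018 (without KO 1) to 0.071 (without KO 2), Rps27 from 0.0097 (without KO 3) to 0.13 (without KO 2), Rpl39 from 0.043 (without KO 1) to 0.12 (without KO 2) and Rpl36a from 0.040 (without WT 2) to 0.20 (without WT 1). Rpl22l1 was also at -0.17 in the unstranded column. Rps4l is a transcribed pseudogene in this annotation, with 137 to 236 counts in WT and 236 to 301 in KO, and its parent Rps4x had 103, 103 and 104 CPM in WT and 111, 105 and 114 in KO (log2 fold change 0.09 ± 0.046, adjusted p = 0.65).

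The transcripts of ribosomal protein genes were slightly more abundant in KO than in WT brain across both subunits. No single one of these genes passed the main edgeR test adjusted over all genes, while DESeq2 and edgeR without a low-count filter called some, as given below. Together the ribosomal protein genes took 0.613%, 0.598% and 0.597% of the gene counts in WT 1 to 3 and 0.655%, 0.623% and 0.671% in KO 1 to 3. Every KO library lay above every WT library, KO 2 nearest to WT, and the KO mean was 1.08 times the WT mean, in the large and in the small subunit alike. Per length the excess was smaller: their share of TPM was 1.41% ± 0.0363 (SD, n = 3) in WT and 1.47% ± 0.0317 in KO, 1.04 times, with KO 2 (1.432%) next to WT 1 (1.430%). The ratio of large to small subunit counts was 1.43 ± 0.0191 (SD, n = 3) in WT and 1.42 ± 0.00420 in KO.

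The genes were tested one by one with edgeR on all 21237 genes that passed the low-count filter, among them 77 of the 79. At an adjusted p under 0.05, 2 of all genes were called (0.00942%) and 0 of the 77. At an unadjusted p under 0.05, 33 of the 77 were higher in KO (19 large, 14 small subunit), against 4.54% of all genes, and 0 were lower, against 3.38%. In 29 (17 large, 12 small) every KO library lay above every WT library, against 7.46% of all genes, and in 0 every KO library lay below, against 6.97%. The log2 fold change was above 0 in 74, with a median of 0.11 (0.11 in either subunit) and a range of -0.12 to 0.35, while the median over all tested genes was 0.00013. Without KO 3, 16 were higher at an unadjusted p under 0.05, against 4.42% of the 21568 genes then tested, the median was 0.09 and 5 of all genes passed the adjusted test. Without KO 2, every KO library lay above every WT library in 49, against 12.7% of the 21775 genes then tested. By DESeq2, which gave an adjusted p to 4768 genes and called 26 (0.545%), 5 were called, namely Rplp0, Rpsa, Rpl8, Rplp1 and Rps9, with adjusted p between 0.0367 and 0.0458. Several ribosomal protein genes, such as Rpl36, Rpl34, Rpl18 and Rps16, got no adjusted p from DESeq2 and could not be called. With edgeR and no low-count filter, which called 298 of 37245 genes (0.8%), 8 were called: the 5 called by DESeq2, Rpl36, Rplp2 and Rps21. Rplp2 and Rps21 overlapped between genotypes and were lower by over 1.5 times without WT 2 (0.15 and 0.07). That fit also called other genes whose groups overlapped, such as the astrocyte marker Gfap (adjusted p = 1.13e-14).

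**Figure D1:**
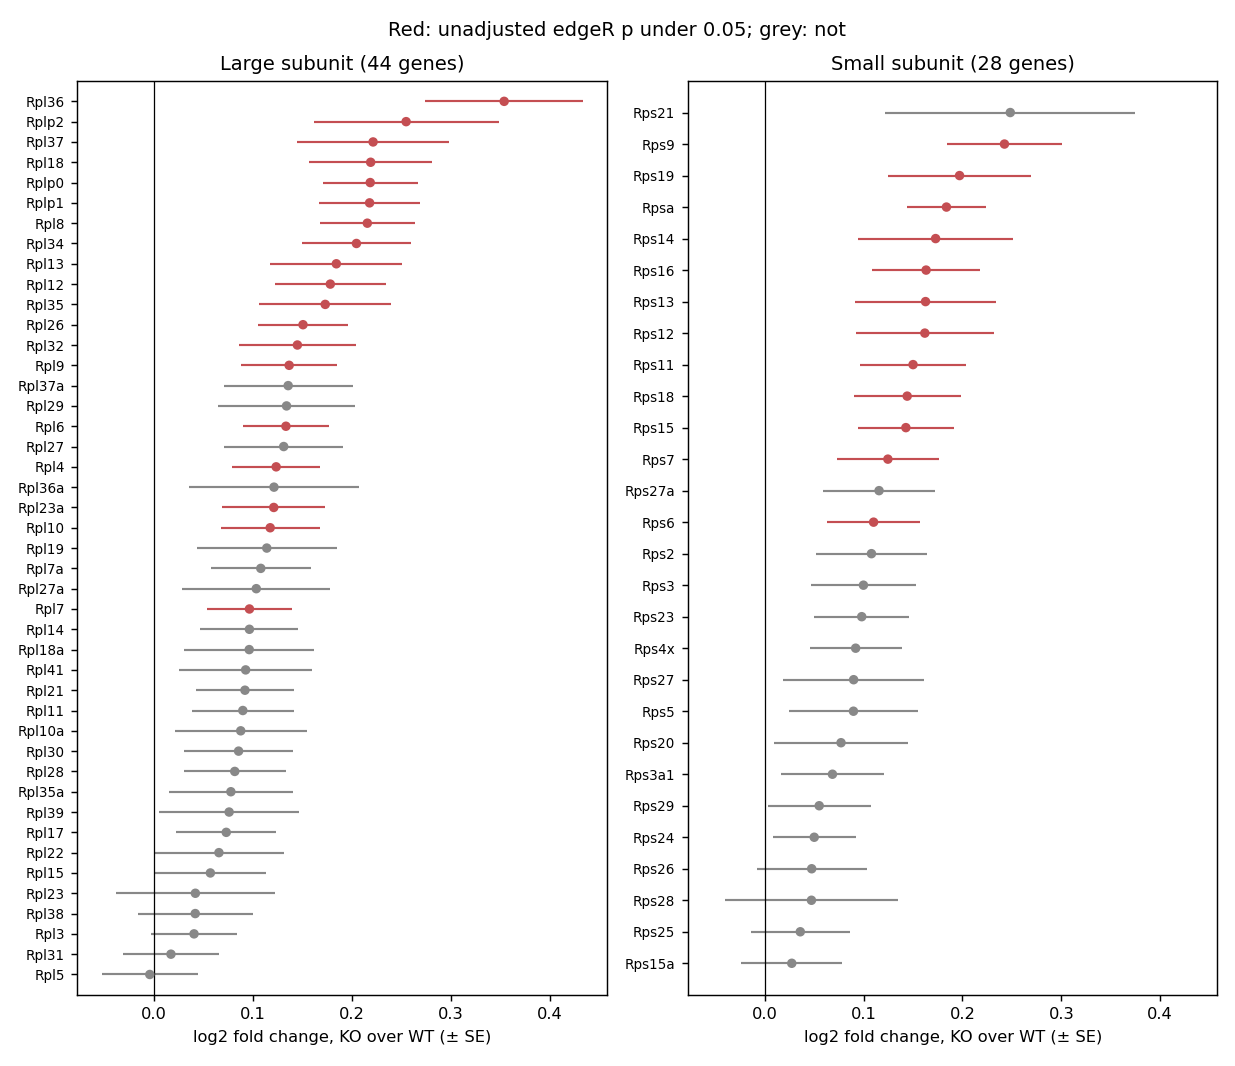
Log2 fold change, KO over WT, with its standard error for 72 of the 74 tested ribosomal protein genes at 10 CPM or more, by subunit (x axis: log2 units; red: unadjusted edgeR p under 0.05). All points but Rpl5 lie to the right of 0, and Rpl36 is farthest right at 0.35.

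The stalk of the large subunit, which recruits and activates elongation factors, is built from the products of Rplp0, Rplp1 and Rplp2. Rplp0, the scaffold of the stalk (chr5:115559467-115563727, GRCm38, plus strand), had 91.0, 83.4 and 88.0 CPM in WT and 101, 102 and 103 CPM in KO. Its groups were apart, at a log2 fold change of 0.22 ± 0.048 (SE, by edgeR at adjusted p = 0.55). Rplp1, one of the acidic proteins that hang from it, had 99.95, 96.6 and 96.0 CPM in WT and 116, 106 and 118 in KO, again without overlap (0.22 ± 0.051, adjusted p = 0.58). Rplp2, its partner, had 46.8, 39.8 and 54.5 CPM in WT and 55.9, 53.3 and 59.3 in KO. WT 3 reached above KO 2 there, and the log2 fold change was 0.25 ± 0.094 (adjusted p = 0.58), or 0.15 without WT 2.

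Beyond the stalk, 4 large subunit genes had the smallest p-values. Rpl8, a protein close to the peptidyl transferase centre (chr15:76904078-76906314, plus strand), had 122, 113 and 119 CPM in WT and 136, 133 and 142 in KO, a log2 fold change of 0.22 ± 0.048 (edgeR adjusted p = 0.55). Rpl36 (chr17:56613416-56614243, plus strand), had the highest log2 fold change of all, 0.35 ± 0.080 (adjusted p = 0.55), from 22.7, 18.7 and 22.3 CPM in WT to 28.5, 26 and 27.0 in KO. In neither gene did the genotypes overlap. Rpl36 is also the shortest tested ribosomal protein gene on the genome, at 828 bp, and 81.1% of its 50-base stretches occur in transcripts of other genes. Rpl34 had 41.7, 40.0 and 43.5 CPM in WT and 46.8, 47.7 and 49.7 in KO (0.20 ± 0.055, adjusted p = 0.58), and Rpl18 had 41.5, 42.2 and 38.8 in WT and 44.1, 48.5 and 49.99 in KO (0.22 ± 0.062, adjusted p = 0.58). Both were without overlap, KO 1 being nearest to WT. Of the abundant genes, Rpl4 had 214, 219 and 208 CPM in WT and 231, 225 and 243 in KO (0.12 ± 0.045, adjusted p = 0.58), and Rpl10, a protein that joins late and lies near the tRNA sites, had 104, 108 and 102 in WT and 108, 112 and 119 in KO (0.12 ± 0.050, adjusted p = 0.62), the latter at 0.077 without KO 3.

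In the small subunit, Rpsa had the smallest p-value of all ribosomal protein genes. Its protein sits near the exit of the mRNA channel and was first described as a laminin receptor (chr9:120127689-120132369, plus strand). Rpsa had 199, 197 and 192 CPM in WT and 219, 221 and 227 in KO, 2 tight groups that differed by 0.18 ± 0.040 on the log2 scale (SE, by edgeR at adjusted p = 0.55). Rps9, at the entry of that channel (chr7:3703993-3706897, plus strand), had 67.5, 61.7 and 59.4 CPM in WT and 74.1, 72 and 77.1 in KO (0.24 ± 0.058, adjusted p = 0.58). The WT libraries were the more spread, and the groups did not overlap. Rps16 had 48.1, 45.8 and 43.5 CPM in WT and 52.1, 50.1 and 51.7 in KO, and Rps15 had 132, 140 and 127 in WT and 144, 145 and 151 in KO. Rps16, Rps15 and Rps19 stood at log2 fold changes of 0.16, 0.14 and 0.20 (adjusted p = 0.58 each). Rps16 and Rps15 had no overlap between genotypes, while in Rps19, the gene most often mutated in Diamond-Blackfan anaemia, WT 2 (47.5 CPM) and KO 2 (47.4 CPM) met.

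**Figure D2:**
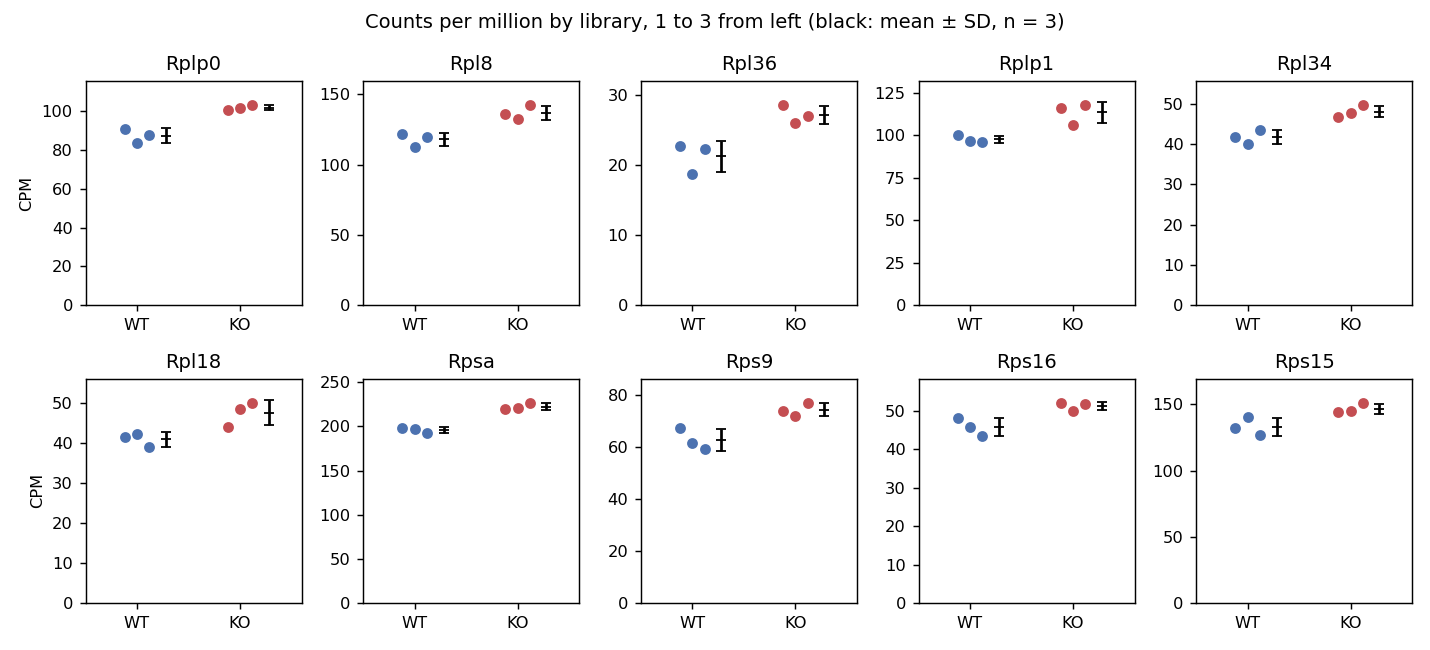
CPM in each library (y axis, from 0) for 6 large and 4 small subunit genes among the 6 of each with the smallest unadjusted p, with the mean and SD of 3 libraries beside each group. In all 10 the KO points lie above the WT points, by amounts that are small beside the level itself, as in Rpsa with 192 to 199 CPM in WT and 219 to 227 in KO.

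Among the genes named here, several had log2 fold changes close to 0. Rpl5, which carries the small rRNA of the large subunit and binds MDM2, had 102, 102 and 99.6 CPM in WT and 104, 95.3 and 103 in KO, a log2 fold change of -0.0045 ± 0.049 (edgeR adjusted p = 0.99). Rps15a (0.03 ± 0.051) had 111, 103 and 108 CPM in WT and 114, 104 and 110 in KO. Rps25, needed for initiation at some viral RNAs, had 65.7, 67.4 and 63.7 CPM in WT and 66.2, 65.5 and 69.9 in KO (0.04 ± 0.050). In these 3 the libraries of the genotypes intermingled. Rpl3 at 0.04 ± 0.044 and Rpl38, whose loss alters the body plan in mice, at 0.04 ± 0.058 also overlapped. Of the low genes, Rpl13a was at -0.12 ± 0.11, Rpl24 at -0.06 ± 0.42 and Rps10 at 0.04 ± 0.15, with errors near the value in Rpl13a and larger than it in the other two. The genes whose levels per length were highest or lowest and that are not yet described, Rps3a1, Rps29, Rpl35a and Rps20, were at 0.07, 0.06, 0.08 and 0.08, each with overlap. Single libraries moved such small values by over 1.5 times: Rps20 ranged from 0.0086 (without WT 2) to 0.14 (without WT 1), Rps29 from 0.016 (without WT 3) to 0.097 (without WT 1), Rpl35a from 0.039 (without WT 2) to 0.13 (without WT 1) and Rps3a1 from 0.033 (without KO 1) to 0.11 (without KO 2). Rpl38 ranged from 0.0049 (without WT 2) to 0.079 (without KO 2) and Rps25 from 0.0069 (without KO 3) to 0.056 (without WT 2). Rpl13a was at -0.18 without KO 3.

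Libraries within a genotype differed as well. The median of each library's deviation from a gene's mean over the 6 libraries, in log2 CPM over the tested ribosomal protein genes, was -0.04, -0.08 and -0.06 in WT 1 to 3 and 0.06, 0.01 and 0.11 in KO 1 to 3. KO 3 was the highest library for 48 of the 77 genes and KO 1 for 19, while WT 2 was the lowest for 37 and WT 3 for 31. The same median over all tested genes lay between -0.0012 and 0.0032 in the 6 libraries. Over the 74 genes at 10 CPM or more, the SD within WT on the log2 scale had a median of 0.07 and within KO of 0.06, next to a median difference between genotypes of 0.11. The gene with the widest spread, Rps21, was named after its values were seen. Rps21 had 61.9, 41.1 and 63.8 CPM in WT and 66.0, 63.5 and 68.8 in KO. Its WT 2 value lay 0.61 below the mean of WT 1 and WT 3 on the log2 scale, and its log2 fold change of 0.25 ± 0.13 (edgeR adjusted p = 0.65) was the highest of the small subunit. Without WT 2 it was 0.07. The WT 2 value of Rplp2 was likewise 0.34 below.

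**Figure D3:**
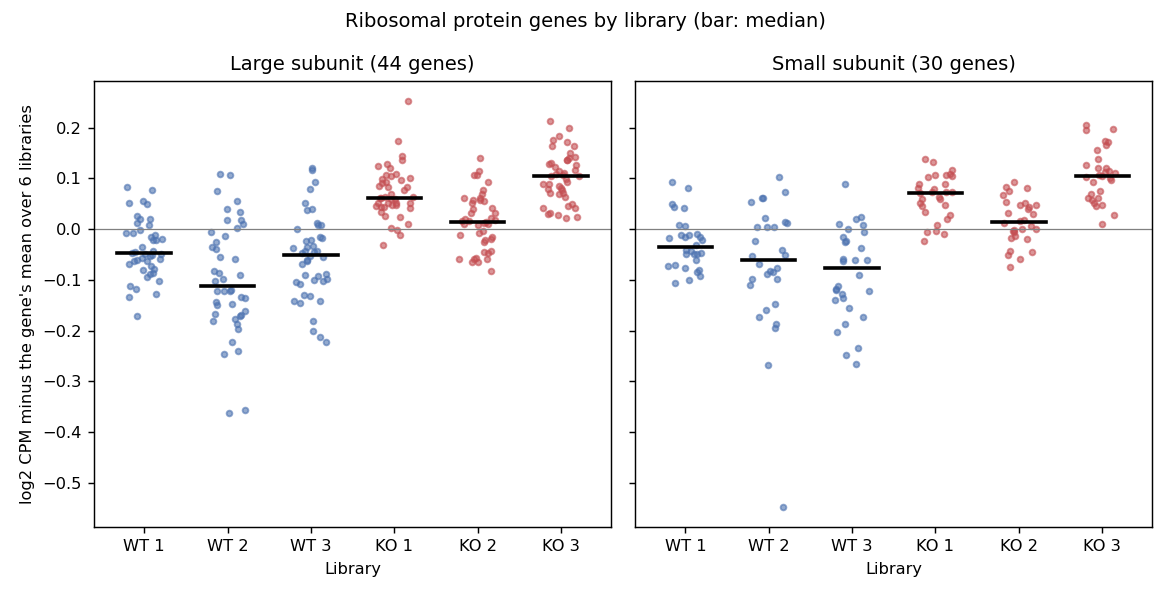
Log2 CPM minus the gene's mean over 6 libraries (y axis) for each of the 74 ribosomal protein genes at 10 CPM or more, by library and subunit, with the median as a bar. KO 1 and KO 3 stand above 0 and the WT libraries below it in both subunits, KO 2 lies near 0, and the lowest point is Rps21 in WT 2.

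The differences varied with base composition and gene length. Across the 74 genes, the log2 fold change had a Pearson r of 0.47 (Spearman 0.47) with the GC content of the longest transcript, of -0.33 (-0.29) with the genomic span, of -0.19 (-0.11) with mean CPM and of 0.03 (0.04) with the share of 50-base stretches found in other transcripts. Genes share libraries, so these values are descriptions. The GC correction lowered several genes with GC-rich transcripts by over 1.5 times: the log2 fold change of Rps15 went from 0.14 to 0.029, of Rpl8 from 0.22 to 0.13, of Rplp1 from 0.22 to 0.14 and of Rps27 from 0.09 to 0.029. It raised Rps20 from 0.08 to 0.13 and Rpl35a from 0.08 to 0.12. Outside the ribosomal protein genes it took the elongation factor gene Eef2 from 0.15 to 0.072. With this correction for GC content over all genes, 29 ribosomal protein genes were higher at an unadjusted p under 0.05, against 2.21% of all genes in that fit, and the median was 0.10. With a correction for genomic span, chosen after the data were seen, 37 were, against 4.37% of all genes, and the median was 0.12. The spans of 30 of the genes hold 58 small nucleolar RNA genes on the same strand, a common arrangement in which these RNAs are cut from introns. Those 30 had a median log2 fold change of 0.11, as did the other 47 tested.

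**Figure D4:**
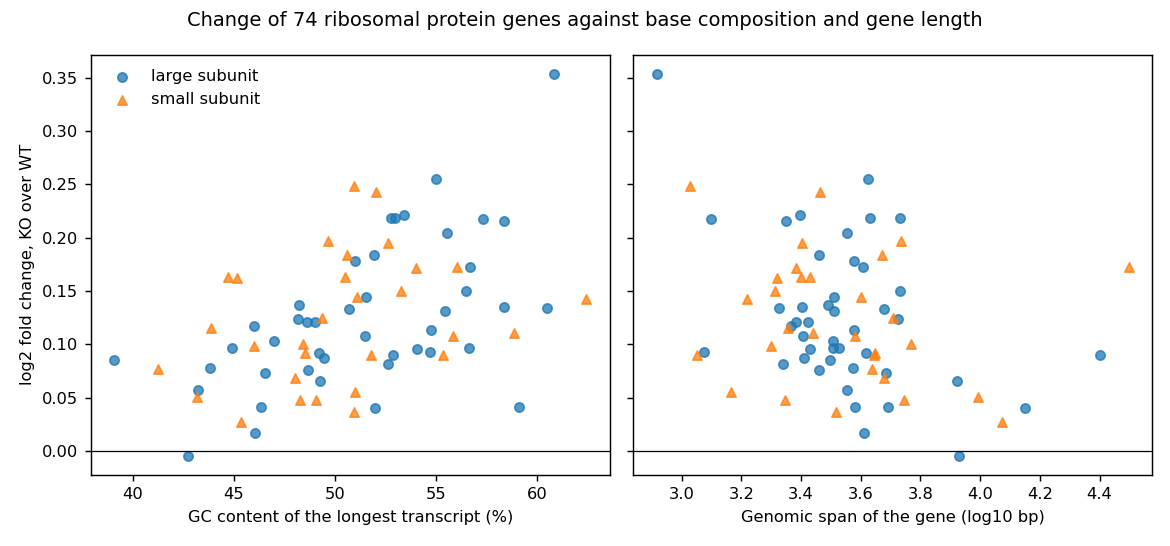
Log2 fold change, KO over WT (y axis), of 74 ribosomal protein genes against the GC content of the longest transcript in percent (left) and the genomic span in log10 bp (right), by subunit. Points rise with GC content (r = 0.47) and fall with span (r = -0.33), and Rpl36 is the top point in both.

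Other short genes had a median above 0 as well, though their summed level did not stand apart (37756 to 38497 CPM in WT and 35839 to 38601 in KO). The 838 tested protein-coding genes with a span of at most 3243 bp, the median of the ribosomal protein genes, had a median log2 fold change of 0.07, and 9.55% of them were higher at an unadjusted p under 0.05, against 42.9% of the ribosomal protein genes. In 11.8% of the short genes, and 37.7% of the ribosomal protein genes, every KO library lay above every WT library. The 7927 other protein-coding genes at a mean of at least 20 CPM had a median of 0.01, with 7.25% higher.

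Other genes of translation had smaller medians. The counts of the following lists stand beside 4.54% of all genes higher and 3.38% lower at an unadjusted p under 0.05. Of 20 other TOP mRNAs, 5 (25%) were higher at that p, 0 were lower and the median log2 fold change was 0.04. Eef2, the translocase of elongation, had 934, 866 and 884 CPM in WT and 1007, 978 and 986 in KO, without overlap (0.15 ± 0.040, edgeR adjusted p = 0.58). Rack1, a scaffold on the small subunit, had 78.0, 75.6 and 75.5 in WT and 83.4, 85.0 and 88.7 in KO (0.17 ± 0.047, adjusted p = 0.58). Ribosomal proteins made as fusions with ubiquitin or a ubiquitin-like protein include those of Rps27a and Fau. Rps27a had 81.1, 72.2 and 79.3 CPM in WT and 87.0, 80.5 and 84.6 in KO (0.12 ± 0.056, adjusted p = 0.64) and Fau stood at 0.16 ± 0.069 (adjusted p = 0.62), both with overlap. Rps27a was at 0.068 without WT 2, and Fau at 0.058 with the GC correction.

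Of 16 regulators of ribosomal protein synthesis, such as the mTOR complex, LARP1 and MYC, 1 (6.25%) was higher, 0 were lower and the median was 0.04, a share near that of all genes. The higher one was Eif4ebp1, a translational repressor, at 0.907, 1.53 and 1.22 CPM in WT and 1.70, 1.22 and 3.18 in KO (0.75 ± 0.33, edgeR adjusted p = 0.62), where KO 3 stood apart and KO 2 lay among the WT libraries. Without KO 3 its log2 fold change was 0.27. Rptor, which brings substrates to mTOR, stood at 0.09 ± 0.045 (adjusted p = 0.65), and at 0.021 with the GC correction. Of 12 chaperones and importers of ribosomal proteins, 3 (25%) were higher, 0 were lower and the median was 0.08. Aamp had 79.5, 77.8 and 78.9 CPM in WT and 88.8, 86.2 and 85.9 in KO (0.14 ± 0.045, adjusted p = 0.58), and Grwd1, the chaperone of RPL3, stood at 0.21 ± 0.092 (adjusted p = 0.62), both without overlap. Grwd1 was at 0.14 with the GC correction. Of 14 genes around Mdm2 and p53, 1 (7.14%) was higher, again near the share of all genes, 0 were lower and the median was 0.08. That one was Cdkn1a, an inhibitor of the cell cycle, with 7.97, 6.67 and 7.99 CPM in WT and 10.01, 20.7 and 14.3 in KO (0.99 ± 0.21, edgeR adjusted p = 0.55), highest in KO 2, the KO library in which ribosomal protein genes were lowest. The edgeR fit without a low-count filter called Cdkn1a (adjusted p = 5.06e-18), Eif4ebp1 (0.0407), Eef2 (0.0435) and Eef1d (0.0498), an elongation factor subunit of the TOP list named after its values were seen. A small adjusted p in that fit can rest on 1 library. It also called Gh, with 0, 0 and 30 counts in WT 1 to 3 and 0 in each KO library (adjusted p = 4.09e-06). Bbc3, a promoter of cell death, was at 0.36 ± 0.19 with overlap (adjusted p = 0.66), at 0.19 without KO 3, 0.55 without KO 2 and 0.22 with the GC correction.

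**Figure D5:**
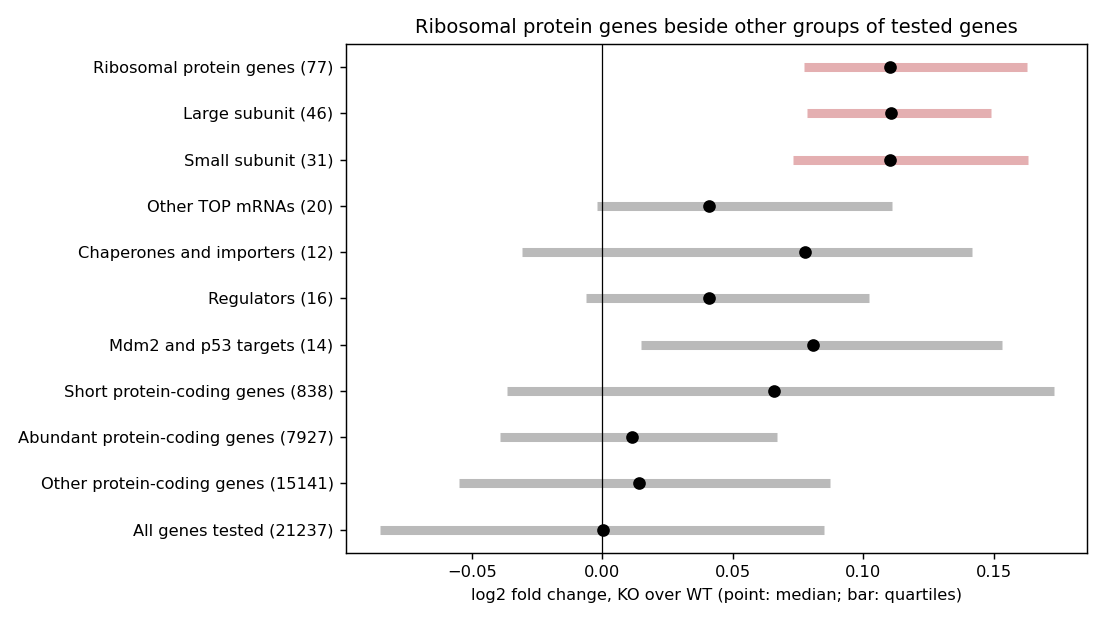
Median (point) and quartiles (bar) of the log2 fold change, KO over WT (x axis), for ribosomal protein genes, 4 lists of related genes and 4 wider groups, with the number of tested genes in brackets. The ribosomal protein genes have a median of 0.11, the short protein-coding genes 0.07 and all tested genes 0.00013.

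Cell type markers were read in the same libraries, in lists of 4 to 6 genes. Their counts stand beside 4.54% of all genes higher and 3.38% lower at an unadjusted edgeR p under 0.05. For the choroid plexus, the epithelium that makes cerebrospinal fluid, 3 of 5 markers were higher at an unadjusted p under 0.05 and the summed level was 308 to 363 CPM in WT and 368 to 440 in KO. For oligodendrocytes 0 of 5 were higher and 1 was lower, with sums of 3490 to 3919 CPM in WT and 3011 to 3584 in KO. Of 5 astrocyte markers 2 were higher (Gfap and Aldh1l1) and 1 was lower (Aqp4). Gfap, which also marks reactive astrocytes, had 115, 131 and 133 CPM in WT and 140, 128 and 248 in KO, with KO 3 far above the rest. The other astrocyte markers were mixed in KO 3. Aqp4 (175 CPM), Slc1a2 (3196) and Gja1 (172) had their lowest value of the 6 libraries there, and Aldh1l1 (61.5) its highest. Lower were 2 of 4 meninges markers, 1 of 5 microglia and 1 of 4 immature neuron markers, and 1 of 5 blood markers was higher. The summed levels of neuron markers were 5445 to 5715 and 5249 to 5583 CPM, of astrocyte markers 4008 to 4243 and 3852 to 4114, of microglia 149 to 185 and 144 to 172, of endothelial and mural cells 266 to 270 and 253 to 277. Blood markers summed to 109 to 149 CPM in WT and 98.3 to 247 in KO, meninges to 65.9 to 74.4 and 58.9 to 70.1, immature neurons to 104 to 122 and 101 to 117, and pituitary markers, 1 of 4 passing the filter, to 0.415 to 1.22 and 0.772 to 1.01. The part of these cell types in the difference of the ribosomal protein genes was not tested.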

How the data were processed

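Whole-number counts per gene, not normalized, were deposited by the authors for 6 libraries, in the layout of STAR's gene counting. Per the submitters' processing notes, cutadapt 1.9.1 and STAR 2.7.0f were used. The genome build and annotation are not given in the sources used here, and the 55450 gene identifiers are exactly those of GENCODE M21 (GRCm38), which gave names, types and lengths. Column 4 of each table, which held 94.6% to 94.8% of stranded gene counts, was used. Reads at several places or in several genes of a strand are left out of it. Depth limits the values of genes with few counts.

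Counts were filtered (filterByExpr by group), scaled (TMM) and tested by genotype with edgeR 4.0.16 in R 4.3.3 (quasi-likelihood test), with Benjamini-Hochberg adjustment over all tested genes. Standard errors are the size of the log2 fold change over the square root of F. CPM use TMM-scaled totals. Members and lists were chosen with earlier results of these data known. Named genes are Trmt1l, per subunit the 6 genes of smallest p, the 3 of lowest fold change and the 3 of highest and lowest level, filtered genes, paralogs, ubiquitin fusions and the 2 of smallest p in each of 4 gene lists; markers are given as sums. Rps21, Rps24, Eef1d, Gh and the astrocyte markers were named after their values were seen. Results of 3 single genes are not reported here, though these genes stay in all fits and counts. Alternatives were the unstranded column, other scaling (DESeq2 size factors, total counts), filters, DESeq2 1.42.0, limma-voom (limma 3.58.1), a replicate block, GC and length corrections, protein-coding genes alone and each library left out.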

Additional observations from a re-analysis of the deposited data

How the results depend on the processing

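In all 19 alternatives refitted, members higher in KO at an unadjusted p under 0.05 numbered 16 to 38, members lower 0, and the median log2 fold change was 0.09 to 0.14. The share of all genes higher at that p was 4.54% in the main fit. Among the alternatives where it was counted, it was 2.21% (GC correction) to 4.42% (without KO 3). Leaving out each library gave 16 (without KO 3) to 37 (without KO 2) members higher, 31 to 49 (without KO 2, against 12.7% of all genes) with every KO above every WT library, 2 to 5 genes called in all, and a difference in the share of gene counts of 0.0361 to 0.0600 percentage points. As in the main fit, both groups share 1 estimate of spread per gene, also where 1 group has 2 libraries. At an adjusted p under 0.05, 8 members and 298 genes were called without a filter, 5 and 26 by DESeq2, and 1 gene in all among protein-coding genes alone. The labels do not say that a replicate number is shared between genotypes, and same-numbered libraries deviated together by r = 0.059, -0.065 and -0.066 over genes, WT 2 correlating best with KO 3 (0.160). With the replicate block, 4 genes were called in all, 30 members were higher (the share of all genes was not counted there) and the median was 0.11. The cause of these moves was not tested.

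Some log2 fold changes near 0 turned sign. Rpl5 was at 0.0051 in the unstranded column, 0.0012 without a filter, 0.042 with the GC correction and 0.042 with GC correction and replicate block together. Under the latter pair of settings Rpl38 was at -0.049 and -0.048 and Rps10 at -0.062 and -0.065. Rps15a was at -0.000300 with the span correction, chosen after the data were seen. Leaving out each library gave -0.032 to 0.034 for Rpl5, -0.0027 to 0.062 for Rps15a, -0.0505 to 0.098 for Rps10, -0.56 to 0.29 for Rpl24, -0.085 to 0.46 for Rpl3l and -0.10 to 0.17 for Rps27l.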
